A study of Mus musculus with 26 samples.

Results

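Ifitm1, Ifitm2 and Ifitm3 are 3 small membrane protein genes that lie side by side on mouse chromosome 7, and their transcripts were followed in fetal ovaries from E11.5 to E18.5. The members were chosen by gene name, with earlier results of these data known, and all 3 were among the 16344 genes read. Each had counts in every pool of cells and passed the filter on low counts in every comparison. The series holds 1881 single cells of fetal ovaries from mice with the BVSC transgenes, Blimp1-mVenus and Stella-ECFP, with E0.5 set as the day of the vaginal plug. The gonads of several embryos were combined at each stage, dissociated with trypsin, sorted by fluorescence and picked as single cells, and polyadenylated RNA was read at its 3' ends by a modified STRT-seq protocol with unique molecular identifiers (UMIs). The groups were BVSC cells (1302 cells, both reporters), Negative cells (529 cells, neither reporter) and BV cells (50 cells, at E11.5 and E14.5), as the deposited cell table names the gates. All groups carry the same transgenes and no group received any other treatment. As a model of germ cells the BVSC gate is limited by its reporters, since a cell that had lost Stella-ECFP would not be in it, and the pooling of embryos leaves no animals to tell apart. The deposited cell table also marks each library R1 or R2, and nothing in the labels ties these marks or the libraries of a stage to different embryos. At E14.5 the BVSC cells of libraries 4, 5 and 12 are marked R1 and those of library 14 R2. Negative cells of libraries 1 and 2 at E11.5, and of 4 and 13 at E14.5, are likewise marked R1. The tests took each library as separate. The p-values therefore rest on how much libraries vary, and that variation may be technical.

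The family takes its name from interferon, which raises its transcription in many cell types. The proteins sit in the plasma membrane and in endosomes, where they hinder the entry of enveloped viruses. Ifitm3, also called fragilis, and Ifitm1 have long been used as markers of mouse primordial germ cells, and Ifitm2 is broadly expressed. In the ovary, female germ cells leave the primordial germ cell state within this span, enter meiosis and begin to form follicles near birth.

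In the GENCODE annotation of GRCm38 (mm10), Ifitm2 spans chr7:140954837-140955987 on the minus strand, Ifitm1 spans chr7:140967221-140969825 on the plus strand and Ifitm3 spans chr7:141009586-141010770 on the minus strand. The bases just before each start are shown here as a description, and no link between their letters and the levels of the 3 genes was tested. They are RefSeq promoter windows on GRCm38.p6, read 5' to 3' on the strand of the gene and stopped before the first annotated exonic base. Their positions are chr7:140967826-140968027 for Ifitm1, which lies inside the longer GENCODE span of that gene, chr7:140955988-140956211 for Ifitm2 and chr7:141010771-141010994 for Ifitm3. Capitals mark letters that match a searched motif.
Ifitm1: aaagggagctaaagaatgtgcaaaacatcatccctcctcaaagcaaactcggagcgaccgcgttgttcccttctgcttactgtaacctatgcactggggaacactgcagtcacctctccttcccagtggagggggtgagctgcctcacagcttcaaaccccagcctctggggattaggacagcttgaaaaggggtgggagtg
Ifitm2: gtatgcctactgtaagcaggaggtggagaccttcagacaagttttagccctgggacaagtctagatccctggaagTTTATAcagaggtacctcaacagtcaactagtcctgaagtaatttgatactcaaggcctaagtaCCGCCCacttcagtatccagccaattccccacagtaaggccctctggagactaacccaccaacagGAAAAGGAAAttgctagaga
Ifitm3: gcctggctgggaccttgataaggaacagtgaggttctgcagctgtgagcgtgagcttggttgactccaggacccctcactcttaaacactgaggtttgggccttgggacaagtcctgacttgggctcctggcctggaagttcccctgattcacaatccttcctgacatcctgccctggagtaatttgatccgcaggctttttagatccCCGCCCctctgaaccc
The motifs searched on both strands of the 250 bases before the start were the interferon-stimulated response element GAAA-NN-GAAA, the gamma-activated site TTCNNNGAA, the TATA box TATAAA and the GC box GGGCGG. The Ifitm2 window held the response element at positions -46 to -37 from the start, a TATA box on the reverse strand at -175 to -170 and GC boxes at -111 to -106 and at -24 to -19, of which the last lies past the printed bases. The Ifitm3 window held a GC box at -42 to -37, and the Ifitm1 window held none of the letters searched. Positions count from the start used for the RefSeq windows, which lies past the exonic base before which printing stopped. From that start the printed bases end at -49 for Ifitm1 and at -27 for Ifitm2 and Ifitm3. Of 32851 RefSeq promoter windows of the same length, 2.98% held the response element, 7.02% the gamma-activated site, 12.4% the TATA box and 32.7% the GC box. A match is a description of letters and not of a bound site. The longest runs shared by any pair of windows were 11 bases, TGGGACAAGTC and AGTAATTTGAT, both between Ifitm2 and Ifitm3.

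Reads of the 3 members can be told from each other near the 3' end but not over their whole length. The longest identical stretch between transcripts was 40 bases for Ifitm1 and Ifitm2, 64 bases for Ifitm1 and Ifitm3 and 69 bases for Ifitm2 and Ifitm3, and within the last 300 bases it was 15, 18 and 26 bases in the same order of pairs. Gm45717, an annotated gene on the same strand, shares 268 of the 655 exonic bases of Ifitm2 (40.9%), and it was listed at 0 in all 35 pools. How the counting treated reads in that overlap is not given in the sources used here, so counts of Ifitm2 are uncertain to that extent.

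The 26 libraries each held cells of 1 of the 8 stages, with a median of 214706 UMIs per cell (range 10016 to 948642), 248293.5 in BVSC cells and 169412 in Negative cells. Counts were summed into 35 pools of at least 5 cells, 18 BVSC and 17 Negative, each the cells of 1 gate in 1 library, with totals of 700825 to 27498626 UMIs. Levels are given as CPM, the UMIs of a gene scaled by the deposited total of the pool. The gates were checked against marker genes, of which Dppa3 is no independent check because its reporter set the BVSC gate. The summed level of 6 germ cell markers (6 of 9 listed were in the table, among them Dppa3, the gene of Stella, and Sycp3) was 969 to 2917 CPM in BVSC pools and 23.9 to 549 CPM in Negative pools. The summed level of 6 of 8 early gonadal somatic markers, among them Wt1 and Nr5a1, was 8.32 to 100.3 CPM in BVSC pools and 660 to 1831 CPM in Negative pools. Clustering without the Ifitm genes placed 1232 of the BVSC cells in germ clusters, 23 in somatic clusters, 43 in a cluster with markers of both classes and 4 in an immune-like cluster. Of the Negative cells, 511 lay in somatic clusters and 9 in germ clusters. No cell barcode was shared between libraries and no pair of pools held identical values.

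In BVSC cells all 3 members were high from E11.5 to E13.5 and far lower at E18.5, where Ifitm2 was still seen in 93 of 97 cells. Ifitm1, which is known as a cell surface protein of primordial germ cells, had 709.5 and 724 CPM in the E11.5 pools, 633 and 722 CPM at E12.5 and 697 and 659 CPM at E13.5. At E14.5 its 4 pools had 550.3, 666, 456 and 527 CPM, and at E15.5 its pools had 85.8 and 306 CPM. It had 259.6 and 154 CPM at E16.5, 88.4 and 53.0 CPM at E17.5 and 14.2 and 24.9 CPM at E18.5. Every pool from E15.5 on lay below every earlier pool, and the E18.5 pools were the lowest of all. The pools of neighbouring stages overlapped from E11.5 to E14.5 and again between E15.5 and E16.5.

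Ifitm2, the most widely expressed member, followed the same course. Its pools had 709.6 and 784.5 CPM at E11.5, 743 and 758 CPM at E12.5, and 656 and 817 CPM at E13.5. They had 628, 706, 583 and 613 CPM at E14.5, 119 and 463 CPM at E15.5 and 229 and 126 CPM at E16.5. The last stages had 119.6 and 74.5 CPM at E17.5 and 42.2 and 59.2 CPM at E18.5. The E18.5 pools were again the lowest, and the levels at E15.5 lay furthest apart within a stage.

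Ifitm3, the member with the strongest antiviral activity in studies of influenza virus, had 762 and 763 CPM at E11.5, 657 and 709 CPM at E12.5 and 556 and 725 CPM at E13.5. At E14.5 it had 392, 599, 345 and 355 CPM, so that 1 of 4 pools was within the range of the earlier stages. It had 23.8 and 151 CPM at E15.5, 36.6 and 22.9 CPM at E16.5, 7.45 and 11.4 CPM at E17.5 and 11.7 and 9.49 CPM at E18.5. Its lowest pool was at E17.5 and the pools of E17.5 and E18.5 overlapped. Much of the E18.5 level came from 2 of the 97 cells, 1 in a somatic cluster with 651 CPM and 1 in the immune-like cluster with 181 CPM. The BVSC cells of germ clusters alone had 3.02 and 3.28 CPM of Ifitm3 at E18.5.

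**Figure D1:**
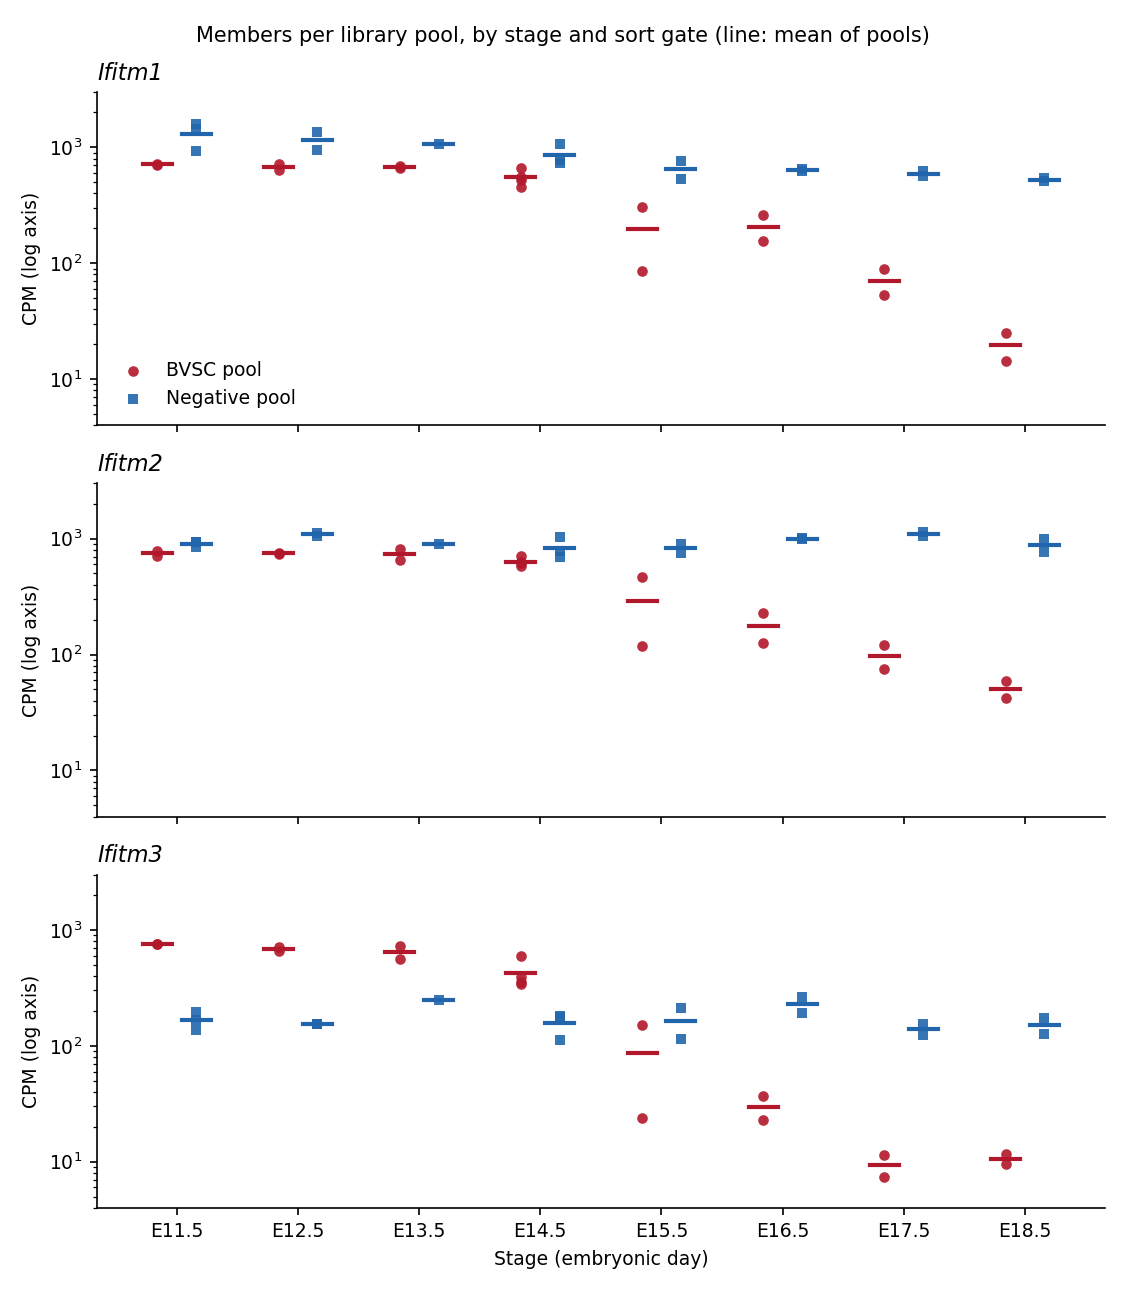
Level of each member in CPM (log axis) per pool, by stage, with BVSC pools (circles) left of Negative pools (squares) and a line at the mean of the pools of a stage. The E14.5 BVSC pools of libraries 4, 12 and 14 already lie below all BVSC pools of E11.5 to E13.5. Every BVSC pool from E15.5 on lies below every earlier one. Negative pools keep 515 and 538 CPM of Ifitm1 and 768 and 986 CPM of Ifitm2 at E18.5.

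Across the whole span the members changed by far more than the spread between libraries. In E18.5 against E11.5 BVSC pools, edgeR's quasi-likelihood test with Benjamini-Hochberg adjustment over 10246 genes called 27.7% of genes in either direction and 12.9% lower, and all 3 members were among those called lower. The log2 change was -5.44 ± 0.51 (SE) for Ifitm1 with an adjusted p of 3.5e-07 by edgeR, -4.11 ± 0.48 for Ifitm2 with 2.9e-06 and -6.42 ± 0.64 for Ifitm3 with 7.1e-07 (2 pools per stage, with the spread shared over 18 pools). Means were 19.6 CPM at E18.5 and 717 CPM at E11.5 for Ifitm1, 50.7 and 747 CPM for Ifitm2, and 10.6 and 763 CPM for Ifitm3. Counted from the lowest log2 change among the 10246 genes, Ifitm3 stood at rank 304, Ifitm1 at rank 456 and Ifitm2 at rank 703. With BVSC cells of germ clusters alone the change of Ifitm3 was larger, at -8.20, and that of Ifitm1 and Ifitm2 was -5.64 and -4.50.

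The fall did not rest on 1 set of libraries. Library titles begin with 1 set of digits for libraries 1 to 6 and with another for libraries 7 to 26, and each set holds 1 BVSC pool of E18.5 and 1 of E11.5. Within the set of libraries 1 to 6 the log2 ratio of CPM was -5.64 for Ifitm1, -4.07 for Ifitm2 and -6.03 for Ifitm3, and within that of libraries 7 to 26 it was -4.86, -3.73 and -6.33. The E18.5 pool of library 26 also had 436 CPM of 8 immune markers (8 of 12 listed were in the table, each with counts in the sum of the E18.5 pools) and 559 CPM of 5 of 8 erythroid markers. The E18.5 pool of library 6 had 19.6 and 20.3 CPM of the same lists, and its Ifitm1 level of 14.2 CPM was the lower of the pair. Summed early gonadal somatic markers were 38.2 and 15.6 CPM in the E18.5 pools and 14.49 and 17.3 CPM in the E11.5 pools, with counts for all 6 of them.

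Most of the change fell in the second part of the span. For E14.5 against E11.5, where 13.9% of genes were called by edgeR and 5.62% called lower, Ifitm1 had a log2 change of -0.57 ± 0.35 (adjusted p = 0.307), Ifitm2 of -0.43 ± 0.36 (adjusted p = 0.446) and Ifitm3 of -1.02 ± 0.42 (adjusted p = 0.107). The unadjusted edgeR p of these 3 was 0.125, 0.241 and 0.0229, and the DESeq2 adjusted p was 0.273, 0.411 and 0.0685. The change of Ifitm3 passed without library 5, the E14.5 pool with the highest level (-1.31, adjusted p = 0.0462 by edgeR), without library 16 (-1.05, 0.00601) and without library 18 (-1.05, 0.00718), both of E15.5. For E18.5 against E14.5, where 18.8% of genes were called and 9.24% called lower, all 3 members were lower by edgeR, by -4.88 ± 0.48 for Ifitm1 (adjusted p = 1.2e-06), -3.68 ± 0.45 for Ifitm2 (1.1e-05) and -5.39 ± 0.59 for Ifitm3 (4.2e-06).

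Among successive stages the step from E14.5 to E15.5 was the one in which members passed the test. There edgeR called 6.34% of genes in either direction and 2.73% lower, with Ifitm1 (-1.59 ± 0.39, adjusted p = 0.0198) and Ifitm3 (-2.39 ± 0.49, adjusted p = 0.00784) among them, while Ifitm2 had -1.22 ± 0.38 (adjusted p = 0.0612). These calls turned on the E15.5 libraries, 16 and 18, which differed from each other for every member. Without library 16 the changes were -0.96 for Ifitm1 (adjusted p = 0.350 by edgeR) and -1.62 for Ifitm3 (0.0754), and the genes called lower in that step numbered 7 where the full set gave 280. Without library 18 the change of Ifitm2 was -2.49 (adjusted p = 0.00021 by edgeR). Without library 5 the change of Ifitm1 was -1.43 (adjusted p = 0.0573 by edgeR). The change of Ifitm2 also passed without other single libraries, such as library 26 (-1.22, adjusted p = 0.0298 by edgeR), and by DESeq2 (-1.14, adjusted p = 0.0324). In library 16, 59.6% of BVSC cells lay in germ cluster 5 and 28.7% in germ cluster 8, and in library 18, 17.9% lay in cluster 1, 34.3% in cluster 6 and 38.8% in cluster 5. Clusters 1 and 6 were also the main clusters of the E14.5 libraries. For the later steps edgeR gave adjusted p-values of 0.569 and 0.128 for Ifitm1 (-1.59 ± 0.43 from E16.5 to E17.5 and -1.82 ± 0.45 from E17.5 to E18.5), and the last step passed by DESeq2 (-1.80, adjusted p = 0.0106), without library 16 (-1.82, 0.0127) and without library 18 (-1.82, 0.0186). For the step from E15.5 to E16.5, Ifitm3 had -1.50 ± 0.51 (adjusted p = 0.328 by edgeR) and passed without library 16 (-2.35, adjusted p = 0.00034), as did Ifitm2 (-0.67 ± 0.42 with all libraries, -1.39 and an adjusted p of 0.0455 without library 16). Without library 18 the direction of that step turned, with +0.28 for Ifitm3 (adjusted p = 0.902 by edgeR) and +0.53 for Ifitm2 (0.777).

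Negative cells show the members outside the germ line. Ifitm1 had 1433, 1574 and 924 CPM in the E11.5 pools, 1369 and 952 CPM at E12.5, 1061 CPM in the single E13.5 pool and 1074, 731 and 775 CPM at E14.5. It had 538 and 758 CPM at E15.5, 650.4 and 624 CPM at E16.5, 560.3 and 620.3 CPM at E17.5 and 515 and 538 CPM at E18.5. Levels thus stood lower at later stages, with no overlap between the E18.5 and E11.5 pools. For E18.5 against E11.5, edgeR called 3.98% of 8955 genes and 1.33% lower, with Ifitm1 among them at -1.37 ± 0.24 (adjusted p = 0.00106). The within-set log2 ratios were -1.55 among libraries 1 to 6 and -0.78 among libraries 7 to 26. Marker levels moved with this change. Summed early gonadal somatic markers were 799 and 723 CPM in the E18.5 pools and 1463, 1831 and 1492 CPM in the E11.5 pools, and summed immune markers were 373 and 426 CPM at E18.5 and 10.5, 134 and 1.04 CPM at E11.5. Their part in the result was not tested. In the Negative cells of somatic clusters alone the change of Ifitm1 was -1.09 (adjusted p = 0.00723 by edgeR).

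Ifitm2 and Ifitm3 gave no such call in Negative cells. Ifitm2 had 932, 845 and 943 CPM at E11.5, 693 to 1135 CPM over the pools of E12.5 to E17.5, and 768 and 986 CPM at E18.5. Its change from E11.5 to E18.5 was -0.11 ± 0.20 (adjusted p = 0.823 by edgeR), and the E18.5 pools overlapped those of E11.5. Ifitm3 had 136, 168 and 195 CPM at E11.5, 113 to 264 CPM over the pools of E12.5 to E17.5 and 127 and 173 CPM at E18.5, with a change of -0.22 ± 0.34 (adjusted p = 0.785 by edgeR). Its pools overlapped too. The E12.5 pools of Ifitm2, with 1127 and 1046 CPM, lay above all E11.5 pools, but that difference did not pass (+0.29 ± 0.20, adjusted p = 0.695 by edgeR).

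The change of each member differed between BVSC and Negative cells by the test of the difference itself, and was further below 0 in BVSC cells. The change from E11.5 to E18.5 in BVSC pools minus that in Negative pools was -4.24 ± 0.51 for Ifitm1 (adjusted p = 8.5e-07 by edgeR), -4.15 ± 0.49 for Ifitm2 (adjusted p = 6.1e-07) and -6.35 ± 0.67 for Ifitm3 (adjusted p = 4.6e-08), in log2. In this comparison 6.78% of 11291 genes were called and 4.52% were called lower. The fit, also used for the differences at each stage, had no term for library. Libraries 1 and 7 of E11.5 and 6 and 26 of E18.5 each gave a pool to both gates, and these pools were taken as separate.

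Set against Negative cells stage by stage, Ifitm3 changed sides. Its BVSC pools were all above its Negative pools at E11.5, E12.5, E13.5 and E14.5, overlapped them at E15.5, and were all below them at E16.5, E17.5 and E18.5. Throughout, whether pools overlap is a description of few pools, since the share of all genes whose pools lie apart was not counted. The log2 difference, BVSC minus Negative, was +2.55 ± 0.42 at E11.5 (adjusted p = 1.7e-05), +2.40 ± 0.48 at E12.5 (0.00034) and +1.59 ± 0.36 at E14.5 (0.00075), each called higher by edgeR, where the share of genes called higher was 12.9%, 10.8% and 16.4%. At E13.5, with 1 Negative pool, it was +1.60 ± 0.60 (adjusted p = 0.103, with 1.74% of genes called higher), and it passed without library 16 (+1.60, 0.0321) or library 18 (+1.60, 0.0331). At E15.5 it was -0.85 ± 0.45 (adjusted p = 0.194), with -0.07 without library 16 (adjusted p = 1.0) and -2.67 without library 18 (adjusted p = 0.00039). It was -2.88 ± 0.49 at E16.5 (7.4e-05), -4.04 ± 0.52 at E17.5 (3.2e-07) and -3.80 ± 0.52 at E18.5 (1.0e-06), where edgeR called 8.14%, 10.1% and 9.68% of genes lower. The call at E12.5 needed library 9 (+1.99 and an adjusted p of 0.0629 without it). Over all stages these opposite differences left a mean of -0.01 ± 0.58 (adjusted p = 0.990 by edgeR).

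Ifitm1 and Ifitm2 stood closer to the Negative level at first. The BVSC pools of Ifitm1 lay below the Negative pools at every stage, by -0.48 ± 0.33, -0.53 ± 0.36, -0.44 ± 0.44 and -0.50 ± 0.27 from E11.5 to E14.5, and these differences did not pass (adjusted p = 0.327, 0.338, 0.632 and 0.164 by edgeR). With deposited totals in place of TMM scaling the difference was -0.87 at E11.5 (adjusted p = 0.0461) and -0.65 at E14.5 (0.0488), and the difference at E14.5 passed without library 7 (-0.69, 0.0455) or library 9 (-0.69, 0.0489). With thinned pools it was -0.99 at E11.5 (adjusted p = 0.0263 by edgeR) and -1.08 at E12.5 (0.0267), and that of Ifitm2 was -0.90 at E12.5 (0.0422). The difference was -1.67 ± 0.37 at E15.5 (adjusted p = 0.0014), -1.56 ± 0.37 at E16.5 (0.0026), -3.24 ± 0.39 at E17.5 (1.3e-07) and -4.72 ± 0.43 at E18.5 (4.1e-10). Ifitm2 differed by +0.08 ± 0.32, -0.29 ± 0.35, -0.05 ± 0.43 and -0.26 ± 0.27 from E11.5 to E14.5, where no edgeR adjusted p was below 0.482, and its pools overlapped at E14.5. On the CPM scale every BVSC pool of Ifitm2 lay below the Negative pools from E11.5 to E13.5, so that at E11.5 the levels and the fitted difference, which is scaled by TMM, do not have the same direction. It was then lower in BVSC pools by -1.45 ± 0.36 at E15.5 (adjusted p = 0.0039), -2.42 ± 0.37 at E16.5 (2.8e-05), -3.67 ± 0.39 at E17.5 (1.3e-08) and -4.06 ± 0.40 at E18.5 (2.2e-09). At E15.5 edgeR called 9.34% of genes lower, and without library 16 the calls of Ifitm1 (-1.03, adjusted p = 0.102) and Ifitm2 (-0.79, adjusted p = 0.187) were lost. Without library 22 the call of Ifitm1 at E16.5 was lost too (-1.26, adjusted p = 0.0885).

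**Figure D2:**
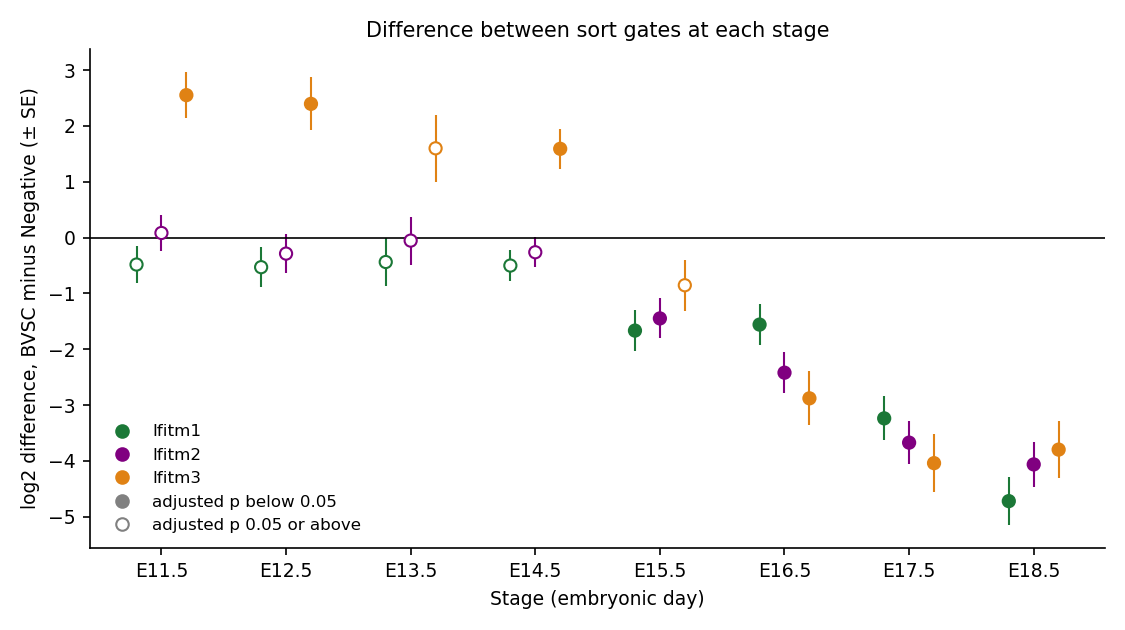
Log2 difference between BVSC and Negative pools (BVSC minus Negative, ± SE) of each member at each stage, with filled points for an adjusted p below 0.05 by edgeR's quasi-likelihood test. Ifitm3 goes through 0 between E14.5 and E15.5, and all 3 members are filled and below 0 from E16.5 on.

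Averaged over the stages, where edgeR called 64.3% of 9805 genes and 25.5% lower, BVSC pools had less Ifitm1 (-1.45 ± 0.29, adjusted p = 4.9e-05) and less Ifitm2 (-1.34 ± 0.32, adjusted p = 0.00044). With so many genes called, a call in this comparison is common. In the 10 libraries that held both gates, the cells of a library were processed together, and there the log2 ratio of Ifitm3 was +2.49 and +1.97 in the E11.5 libraries 1 and 7, +2.08 and +2.21 in the E12.5 libraries 8 and 9, +1.16 in library 3 of E13.5 and +1.11 in library 4 of E14.5. It was -4.05 and -3.75 in the E17.5 libraries 24 and 25 and -3.44 and -4.19 in the E18.5 libraries 6 and 26. The ratio had the same sign in all libraries of a stage. For Ifitm1 it was below 0 in all 10 libraries, from -0.35 in library 7 to -5.18 in library 6.

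The E16.5 pools held the most BVSC cells outside the germ clusters, and the members' levels differed between the classes of cells. Of 188 BVSC cells at E16.5, 147 lay in germ clusters and had 80.5 CPM of Ifitm1, 68.6 CPM of Ifitm2 and 16.1 CPM of Ifitm3. Another 31 lay in cluster 15, which has markers of both classes, with 719, 541 and 64.3 CPM, and 10 lay in somatic clusters with 772, 1013 and 180.0 CPM. Per library, the germ cluster cells of E16.5 had 100.4 and 54.9 CPM of Ifitm1, and those of E15.5 had 61.4 and 267 CPM. With BVSC cells of germ clusters and Negative cells of somatic clusters alone, the gate difference at E16.5 was -2.97 for Ifitm1, -3.86 for Ifitm2 and -3.79 for Ifitm3, each with edgeR's adjusted p at or below 1.4e-07. The same restriction gave a difference of -5.92 for Ifitm3 at E18.5 (adjusted p = 2.4e-10 by edgeR). No doublet caller was run, so cells of cluster 15 were neither removed nor split.

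The proportions among the members differed between the gates while the family was high in both. From E11.5 to E14.5, the ratio of Ifitm3 to Ifitm2 counts had a median of 0.867 over 10 BVSC pools (range 0.579 to 1.07) and of 0.176 over 9 Negative pools (0.138 to 0.277). From E15.5 to E18.5 it was 0.171 over 8 BVSC pools (0.0623 to 0.325) and 0.171 over 8 Negative pools (0.117 to 0.262). The early BVSC pools thus shared no value with any other pool, and the late BVSC pools overlapped the Negative ones. The counts are of 3' ends, with 1 UMI per molecule, and were not divided by length, so the ratio compares pools rather than genes. The ratio of Ifitm1 to Ifitm2 in Negative pools was 1.06 from E11.5 to E14.5 (0.911 to 1.86) and 0.641 from E15.5 to E18.5 (0.529 to 0.838). The 3 members together made up a median of 2003 CPM in the early BVSC pools (1384 to 2271) and 222 CPM in the late ones (68.2 to 920), against 2207 CPM (1602 to 2651) and 1771 CPM (1398 to 1919) in the Negative pools of the same stages.

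Over single BVSC cells of a library the members also varied together at the early stages. Over cells of 1 library, Spearman's rho in the 10 early BVSC pools had a median of 0.785 between Ifitm1 and Ifitm2 (range 0.528 to 0.850), 0.719 between Ifitm1 and Ifitm3 (0.423 to 0.881) and 0.664 between Ifitm2 and Ifitm3 (0.267 to 0.83). In the 8 late BVSC pools the medians were 0.403, 0.309 and 0.288. In 7 early Negative pools they were 0.483 for Ifitm1 and Ifitm2 and -0.03 for both pairs with Ifitm3. In 8 late Negative pools the medians were 0.189, 0.0075 and 0.231. These are descriptions over cells that share a library and its scaling to CPM. In library 8 the BVSC cells of cluster 7 had 1022, 1173 and 1033 CPM of Ifitm1, Ifitm2 and Ifitm3. Those of cluster 3 had 600, 706 and 625 CPM. The median UMIs per cell were 146314 in cluster 7 and 358584.5 in cluster 3. The part of such subgroups and of depth in rho was not tested.

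The share of cells with a UMI was compared after each cell had been thinned to 50000 UMIs, since the median UMIs per cell were higher in BVSC than in Negative cells at every stage but E16.5. Ifitm3 was seen in 100% of BVSC cells at E11.5, E12.5 and E13.5, in 97.8% at E14.5, 44.8% at E15.5, 35.3% at E16.5, 19.3% at E17.5 and 13.98% at E18.5 (13 of 93 cells, exact 95% interval 7.66% to 22.7%). In Negative cells it was seen in 97.3%, 100%, 96.4%, 73.7%, 76.5%, 81.6%, 57.6% and 52.8% at the same stages (19 of 36 cells at E18.5, 35.5% to 69.6%). Without thinning, 49 of 97 BVSC cells at E18.5 (50.5%) had a UMI of Ifitm3. Ifitm1 was seen in all thinned BVSC cells to E14.5 and in 75.3%, 89.6%, 82.96% and 48.4% from E15.5 to E18.5, and in 83.3% of Negative cells at E18.5. Ifitm2 was seen in 89.6%, 85.5%, 94.8% and 76.3% of BVSC cells from E15.5 to E18.5 and in every thinned Negative cell. Thinning left out 4 of 97 BVSC and 8 of 44 Negative cells at E18.5, and 3 of 133 BVSC and 9 of 46 Negative cells at E11.5. Intervals cover counting error only. Every gonadal cell class held all 3 members, so no class gives a background share, and what free RNA adds to a cell was not tested.

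**Figure D3:**
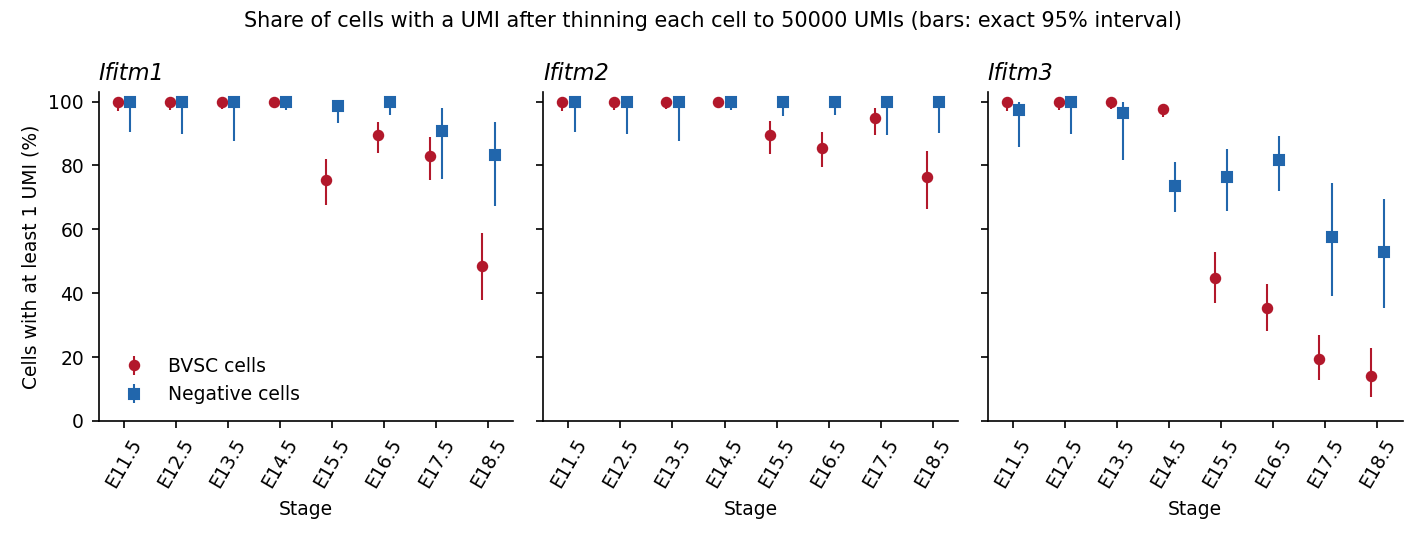
Percent of cells with at least 1 UMI of each member by stage after thinning to 50000 UMIs, with BVSC cells (circles) left of Negative cells (squares) and exact 95% binomial intervals. The Ifitm3 share of BVSC cells goes from 100% at E11.5 through 44.8% at E15.5 to 13.98% at E18.5.

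The level per cell showed how broad the fall was. The median BVSC cell had 772, 713, 685, 372, 7.23, 0, 0 and 1.70 CPM of Ifitm3 from E11.5 to E18.5, and 727, 702, 706, 545, 96.4, 67.8, 29.5 and 10.3 CPM of Ifitm1. The medians of Ifitm2 were 758, 753, 789, 658, 191, 71.0, 83.9 and 32.8 CPM. Cells above 100 CPM of Ifitm3 made up 99.4% of BVSC cells at E13.5, 85.9% at E14.5, 19.9% at E15.5 and 8.51% at E16.5. At E18.5 they were 2 of 97 cells, the same 2 that lay in the somatic and the immune-like clusters, and 43.2% of Negative cells at that stage stood above 100 CPM. The E15.5 BVSC cells spanned the widest range for Ifitm2, with quartiles at 28.5 and 448 CPM.

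Across the 9 germ clusters the members were high in the clusters of early median stage and low in those of late median stage. Clusters 13, 3 and 7, with median stages of E11.5, E12.5 and E12.5, held 619 to 891 CPM of Ifitm1, 704 to 991 CPM of Ifitm2 and 648 to 917 CPM of Ifitm3. Cluster 1 (E14.5) held 598, 640.0 and 499.6 CPM of Ifitm1, Ifitm2 and Ifitm3, and cluster 6 (E14.5) held 396, 564 and 201 CPM. Stra8, a gene that germ cells switch on as they enter meiosis, was a leading gene of both. In each of the 4 E14.5 libraries the BVSC cells of cluster 6 had less Ifitm3 than those of cluster 1, with 181 and 596 CPM in library 4, 271 and 662 CPM in library 5, 162 and 446 CPM in library 12 and 247 and 427 CPM in library 14. Cluster 5 (E15.5) held 104, 161 and 31.0 CPM, cluster 8 (E16.5), in which the recombination gene Spo11 was a leading gene, 61.8, 58.5 and 11.47 CPM, and cluster 4 (E17.5) 56.2, 75.4 and 10.9 CPM. Cluster 9 (E18.5), led by Lhx8, Nobox and Sohlh1, which encode transcription factors of early oocytes, held 22.8, 49.5 and 3.17 CPM.

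Somatic clusters differed mainly in Ifitm1. Cluster 12 (90 cells, median stage E12.5), with 8 of 9 pregranulosa markers and Pax8, a gene of the mesonephros, among its leading genes, had 1378 CPM of Ifitm1, and its 6 pools ranged from 1324 to 2013 CPM. Cluster 10 (94 cells), which was stroma-like with 9 of 9 stroma markers and also passed 3 of 6 endothelial ones, had 298 CPM, and its 11 pools ranged from 104 to 598 CPM. No pool of either cluster, each of at least 5 cells, fell in the range of the other. Cluster 10 had a later median stage, E14.5, and the part of stage in this difference was not tested. For Ifitm2 the same clusters had 1009 and 906 CPM and for Ifitm3 187 and 203 CPM, with overlapping pools. Cluster 2 (178 cells), pregranulosa-like with 9 of 9 markers, had 861, 916 and 156 CPM of Ifitm1, Ifitm2 and Ifitm3. Cluster 11 (93 cells) passed 6 of 9 pregranulosa and 4 of 9 stroma markers, and its first leading gene was the mesothelial gene Upk3b. Of 8 surface epithelium or mesothelium markers only 2 were in the table, too few to give that name. The cluster had 690.0, 788 and 219 CPM of the members in the same order. Over the 6 somatic clusters Ifitm3 ranged from 148 to 219 CPM and Ifitm2 from 788 to 1109 CPM. The immune-like cluster 17 (15 cells, 8 of 8 markers) had 286, 692 and 67.2 CPM.

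**Figure D4:**
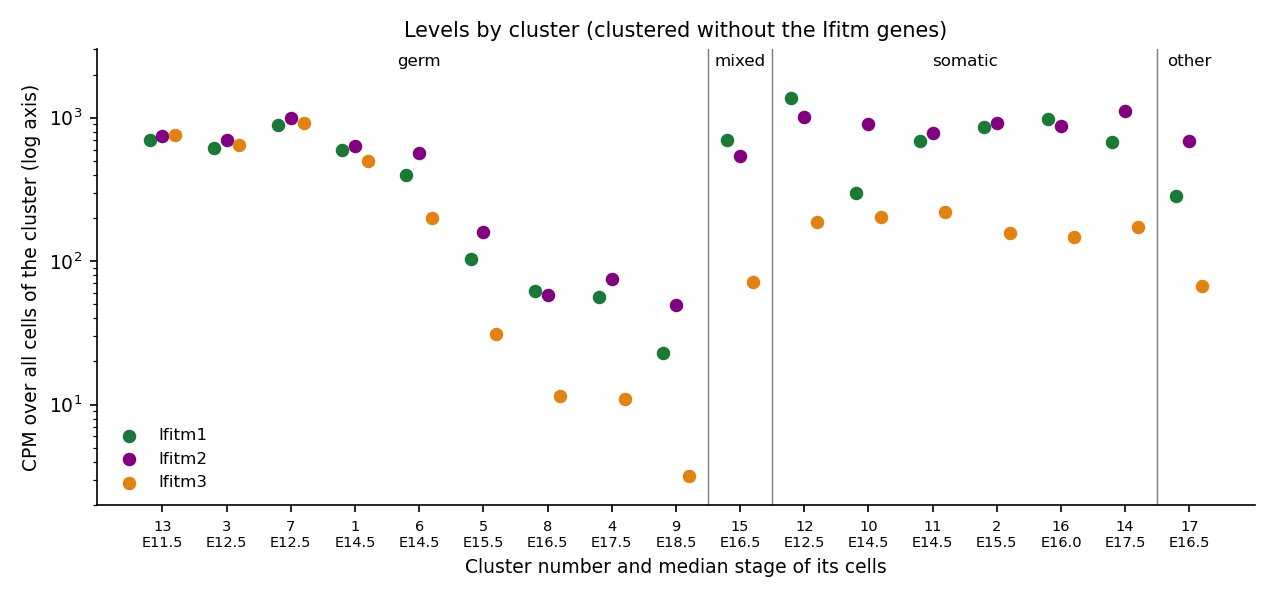
Level of each member in CPM (log axis) over all cells of each of the 17 clusters, grouped as germ, mixed (markers of both classes), somatic and other (immune-like) and ordered by median stage within a group. Germ clusters reach 22.8, 49.5 and 3.17 CPM of Ifitm1, Ifitm2 and Ifitm3 in cluster 9, and among somatic clusters the stroma-like cluster 10 has the lowest Ifitm1 level.

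Neighbours of the members on chromosome 7 were read within 150 kb of their span. The table held 22 of them, 14 were tested, and edgeR called 6 lower in E18.5 against E11.5 BVSC pools (12.9% of all genes were), with a median log2 change of -2.19 over those tested against 0.15 over all genes. Pgghg, which encodes an enzyme that takes glucose off hydroxylysine residues of collagen, changed by -3.92 ± 0.99 in log2 (adjusted p = 0.00553 by edgeR), with 2.16 CPM at E18.5 and 29.2 CPM at E11.5. Psmd13, a proteasome subunit, changed by -0.90 ± 0.30 (0.0299) and Ptdss2, a phosphatidylserine synthase, by -1.14 ± 0.29 (0.00644). Ano9 had no count at E18.5 and 272 at E11.5, so it was at least 59.7-fold lower, taking 3 counts over the E18.5 pools as the floor. B4galnt4 had 2 counts at E18.5 and 164 at E11.5, a ratio of E11.5 to E18.5 CPM of 54.0 with an exact 95% Poisson interval of 14.9 to 446. The tested neighbours that did not pass included Bet1l (+0.63 ± 0.54), Ric8a (+0.14 ± 0.44) and Sirt3 (-0.57 ± 0.63). The others that did not pass, Zfp941, Urah, Pkp3, Sigirr and Ifitm6, had lower CPM over the summed pools at E18.5 than at E11.5. Sigirr, for example, had 3.65 and 12.8 CPM.

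**Figure D5:**
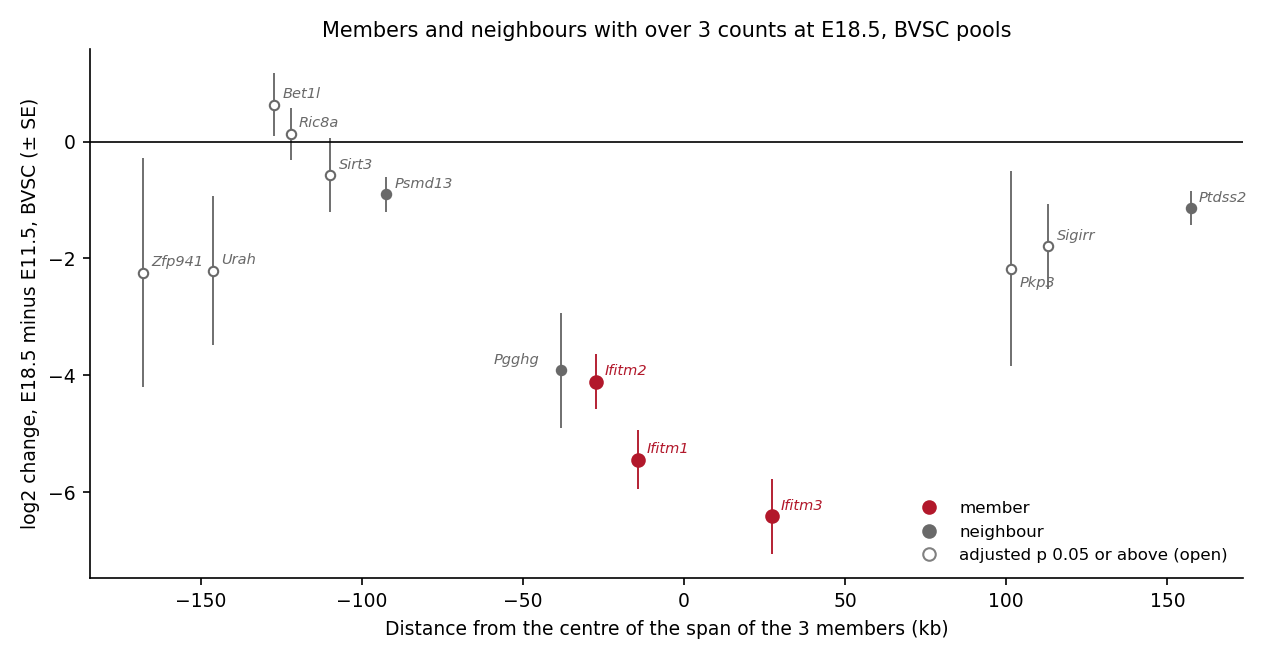
Log2 change of E18.5 against E11.5 BVSC pools (± SE) of the members and of neighbours with over 3 counts at E18.5, by distance in kb from the centre of the members' span, with open points for an adjusted p of 0.05 or above by edgeR. The members lie at -4.11, -5.44 and -6.42, and Pgghg at -3.92 is the plotted neighbour nearest to them in value.

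The family members Ifitm5 and Ifitm6, which flank the 3 genes, were barely detected. Ifitm5, known as a bone-restricted member, had 0 to 6.91 CPM in BVSC pools and 0 to 17.1 CPM in Negative pools. It had no count at E18.5 and 80 at E11.5 in BVSC cells, at least 17.55-fold lower. In that comparison, where 27.7% of all genes were called in either direction, 5 of 7 other Ifitm or dispanin genes in the table were tested. Ifitm5 was the 1 gene called among them (adjusted p = 0.0250 by edgeR). Ifitm6 had no count and 70 counts at the same stages, at least 15.4-fold lower by counts, with an edgeR adjusted p of 0.0714. Its levels were 0 to 2.81 CPM in BVSC pools and 0 to 10.1 CPM in Negative pools. Averaged over the stages, edgeR called Ifitm6, Ifitm10 and Tmem91 higher and Ifitm5 lower in BVSC pools. Of all genes, 38.7% were called higher there and 25.5% lower. The mean level of Ifitm6 was 0.696 CPM in BVSC pools and 0.764 CPM in Negative pools, so its mean and its fitted change differ in direction.

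The genes whose levels over the 18 BVSC pools were most like each member were found by Pearson's r of log2(CPM + 1) among 10246 genes. For Ifitm3 the first 5 included Rhox9 and Rhox6 (both r = 0.991), Tet1 (0.987) and Aif1l (0.987). Rhox6 and Rhox9 are homeobox genes of the X-linked Rhox cluster and Tet1 encodes an enzyme that oxidizes methylated cytosine. For Ifitm1 they were Chchd10 (0.983), Kdelc1 (0.958), Gpx4 (0.957), Tpd52l1 (0.956) and Helb (0.953), and for Ifitm2 they were Gpx4 (0.986), Chchd10 (0.981), Aif1l (0.978), Ppm1j (0.974) and Tpd52l1 (0.972). Chchd10 encodes a mitochondrial protein and Gpx4 a glutathione peroxidase that reduces lipid peroxides. Between the members themselves r was 0.981 for Ifitm1 and Ifitm2, 0.967 for Ifitm2 and Ifitm3 and 0.925 for Ifitm1 and Ifitm3. The points share their libraries and the order of stages, and r is given as a description. By Spearman's rank correlation 2 of the 5 genes most like each member were again among the first 5.

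These genes were picked for likeness over the same pools, so their levels are no separate evidence of it, and they fell by different amounts. Rhox9 averaged 25.3 CPM at E18.5 and 728 CPM at E11.5, and Rhox6 averaged 34.2 and 654 CPM. Tet1 averaged 2.14 CPM at E18.5 and 326 CPM at E11.5. Chchd10 averaged 34.2 CPM at E18.5 and 499.7 CPM at E11.5, and Gpx4 113 and 639 CPM, a smaller change than that of any member.

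Primordial germ cell genes were set beside the members because Ifitm1 and Ifitm3 mark these cells. Of 16 genes on the list, 12 were in the table and tested, and edgeR called 9 of them lower in E18.5 against E11.5 BVSC pools (12.9% of all genes were), with a median log2 change of -6.71 over the 12 against 0.15 over all genes. Tfap2c, a transcription factor of germ cell specification, changed by -8.24 ± 0.88 (adjusted p = 1.1e-06 by edgeR), Sox2 by -7.62 ± 1.35 (0.00025) and Nanog by -7.18 ± 1.20 (0.00014), the last 2 being pluripotency factors. Prdm14, another specification factor, had 1 count at E18.5 and 1800 at E11.5, a ratio of E11.5 to E18.5 CPM of 1184 (exact 95% Poisson interval 213 to 46780). Kit, the receptor of stem cell factor (+0.26 ± 0.35), Dppa3 (-0.89 ± 0.89) and Cd9 (+0.79 ± 0.38), a tetraspanin of oocytes, did not pass. In the mean over stages, where 38.7% of genes were called higher, all 12 were higher in BVSC than in Negative pools, unlike Ifitm1, Ifitm2 and Ifitm3. The list includes Prdm1 (Blimp1) and Dppa3 (Stella), whose reporters set the BVSC gate, so their higher level there follows from the sort. The stage change of Dppa3 was likewise measured only in cells kept by its reporter.

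The interferon response list, named for the signal that induces the family in other cells, had genes called in both directions in BVSC cells. Of 35 genes listed, 19 were in the table and 18 were tested in E18.5 against E11.5 BVSC pools. There edgeR called 2 higher (14.9% of all genes were) and 2 lower (12.9% of all genes were), with a median of -1.73 against 0.15 over all genes. The genes not called lower include some with few counts, such as Isg15 (6 at E18.5 and 73 at E11.5) and Ifi204 (25 and 36). B2m, the light chain of MHC class I, rose by 1.58 ± 0.56 in log2 (adjusted p = 0.0403 by edgeR), with 45.2 CPM at E18.5 and 13.4 CPM at E11.5. Summed immune markers were 436 CPM in the E18.5 pool of library 26 and 19.6 CPM in that of library 6, and their part in this rise was not tested. Ddx58, a sensor of viral RNA, fell by 2.54 ± 0.76 (0.0166), with 8.34 and 41.0 CPM, and Samhd1, which degrades deoxynucleotides, fell by 1.14 ± 0.35 (0.0193), with 62.9 and 116 CPM. At E14.5, with 8.33% of all genes called higher than at E11.5, B2m (+1.95 ± 0.52) was already higher than at E11.5 and Samhd1 lower (-1.59 ± 0.29), with adjusted p-values of 0.0152 and 0.000937 by edgeR.

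Upstream of these genes, 3 of 9 interferon receptor and kinase genes were in the table, and edgeR called all 3 in E18.5 against E11.5 BVSC pools. Of all genes, 27.7% were called there in either direction, 14.9% higher and 12.9% lower. Ifngr1, a receptor chain for interferon gamma, rose by 1.81 ± 0.51 in log2 (adjusted p = 0.0119 by edgeR), with 24.96 CPM at E18.5 and 6.11 CPM at E11.5. Jak1, a kinase of these receptors, rose by 1.42 ± 0.27 (0.00047), with 155 and 48.8 CPM. Ifnlr1, the receptor of interferon lambda, had 1 count at E18.5 and 115 at E11.5, a ratio of E11.5 to E18.5 CPM of 75.7 (exact 95% Poisson interval 13.6 to 2989).

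Against Negative cells, in the mean over stages, 1 of the 19 interferon response genes was higher in BVSC pools, where 38.7% of all genes were, and 10 were lower, where 25.5% of all genes were, with a median of -1.74 against 0.34 over all genes. Gbp2 and Gbp3, guanylate-binding proteins, differed by -5.90 ± 0.58 and -4.75 ± 1.05, Ifi44 by -4.94 ± 1.34 and Oasl2 by -4.45 ± 0.75, with edgeR adjusted p-values of 1.2e-10, 0.00024, 0.00197 and 4.5e-06, in the order named. Mean levels were 0.677 CPM in BVSC pools and 37.1 CPM in Negative pools for Gbp2, and 0.838 and 15.7 CPM for Oasl2.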

How the data were processed

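Single-cell UMI counts per gene were deposited by the authors as 1 table of raw counts with a table of stage and gate per cell. CASAVA 1.8, UMI-tools, STAR, featureCounts, Subread and the build mm10 are named per the submitters' processing notes. Their order, the annotation and the strand setting: not given in the sources used here. That table ends within a line, and its 16344 complete genes hold a median of 51.2% of the deposited total per cell (40.1% to 56.4%). The members and gene lists were chosen with earlier results of these data known.

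Counts were summed per library and gate (at least 5 cells) and tested with edgeR 4.0.16 in R 4.3.3: TMM scaling, filterByExpr, quasi-likelihood test, Benjamini-Hochberg adjustment over all genes tested, threshold 0.05. An SE is the size of the log2 change divided by the square root of F. Stage fits used the pools of 1 gate, and gate fits used all pools. The fit was tested on simulated data with known changes, 2 pools against 2. It called 100% and 90% of genes with a log2 change of 2 and -2. Of those with 1 and -1 it called 24% and 28%, so a change of that size that did not pass may have been missed.

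Cells were clustered without the Ifitm genes with scanpy 1.11.5 (genes in at least 10 cells, 10000 per cell, 2000 variable genes, 30 components, 15 neighbours, Leiden resolution 1.0), and no doublet caller was run. A cluster was called germ or somatic by markers (limits of 30% and 15%). Named were the members, other Ifitm and dispanin genes, neighbours within 150 kb, the 5 genes most like each member, and up to 4 called genes of each list with the largest change; Kit, Dppa3, Cd9, Psmd13, Ptdss2, Bet1l, Ric8a and Sirt3 were chosen after their values were seen. Some genes that this rule names are not reported here. Library numbers mark no shared animal in the labels, but cells of both gates in a library share its processing, so library was tried as a block. Alternatives were DESeq2 1.42.0, upper-quartile scaling, deposited totals, no filter, thinning, pools of at least 10 cells, cells in accord with their gate by markers, gate and cluster class, title digits as a covariate, and each library left out.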

Additional observations from a re-analysis of the deposited data

Results flagged for a closer look

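In a fit with no term for library, the change from E11.5 to E18.5 differed between the gates by the test of the difference itself, BVSC minus Negative. It was -4.24 in log2 for Ifitm1, -4.15 for Ifitm2 and -6.35 for Ifitm3, with edgeR adjusted p-values of 8.5e-07, 6.1e-07 and 4.6e-08 and the same direction with each library left out in turn.

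BV cells, which entered no comparison, held the members too. The 5 BV cells of library 2 at E11.5 had 128 CPM of Ifitm1, 651 CPM of Ifitm2 and 134 CPM of Ifitm3, so that their Ifitm3 level lay outside the range of the E11.5 BVSC pools (762 and 763 CPM) and near that of the Negative pools (136, 168 and 195 CPM). Of these 5 cells, 4 lay in the immune-like cluster and 1 in a somatic cluster. At E14.5 the 15 BV cells of library 4 had 613 CPM of Ifitm1, 596 CPM of Ifitm2 and 431 CPM of Ifitm3, and the 30 BV cells of library 5 had 486, 558 and 275 CPM. Of the 45 BV cells at E14.5, 41 lay in germ clusters and 4 in the cluster with markers of both classes.

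The 2 Negative cells of library 11 at E13.5, too few for a pool, had 305 CPM of Ifitm1 (10 counts) and 1220 CPM of Ifitm2 (40 counts).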

How the results depend on the processing

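Over 90 tests of members, 2607 values under 36 alternatives kept their direction, except for 83 that were not called in either fit; 2553 kept their side of the threshold, 7 lost it and 47 gained it. Of the main results, 1 changed sides. Ifitm3 in E14.5 against E11.5 BVSC pools passed with no filter on low counts (-0.999, adjusted p = 0.00105 by edgeR) and with thinned pools (-1.01, 0.0390), and lay between -1.31 and -0.95 with single libraries left out. The cause was not tested. With each library left out, E18.5 against E11.5 in BVSC pools ranged from -6.04 to -5.00 for Ifitm1, -4.53 to -3.81 for Ifitm2 and -6.55 to -6.34 for Ifitm3.

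With library as a replicate block, in the 10 libraries that held both gates, the mean difference BVSC minus Negative was -1.91 for Ifitm1 (adjusted p = 0.0042 by edgeR), -1.74 for Ifitm2 (0.0081) and -0.08 for Ifitm3 (0.948), and no call of a member changed. The block gave 2605 genes called higher and 1803 lower, against 2536 and 1968 in the same libraries with stage and no block, an alternative chosen after seeing the data, and 3798 and 2504 over all pools.

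Counts over all genes moved more. Genes called higher in BVSC pools in the mean over stages numbered 2079 with thinned pools, and the median change of all genes was 0.34 with TMM and -0.03 with thinned pools. Of the genes called there, 60.3% were higher with TMM and 47.0% with thinned pools. In Negative cells, E18.5 against E11.5, 237 genes were called higher and 119 lower by edgeR, 379 and 346 by DESeq2, and 120 and 64 without library 26. In BVSC cells, E18.5 against E11.5, 895 genes were called higher without library 7, against 1524 with it, and the median of all genes was 0.15 with TMM and 0.41 with deposited totals. Of 96 shares of cells thinned to other depths, 31 moved beyond their interval. Depth and the number of pools, 2 at most stages and 1 Negative pool at E13.5, limit the precision of each change.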
